A study of Sus scrofa with 12 samples.

Results

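ADAMTS3, MALRD1, TLN1, PIEZO2 and DOCK2 are 5 long protein-coding genes of the pig whose mRNAs carried more m6A peaks in fresh boar sperm (Fs) than in frozen-thawed boar sperm (Fts). They were picked for exactly that difference in peak number, out of 11705 genes with at least 1 peak, so their peak numbers, exons and peak scores are given as a description and were not tested. Across the 6 samples they held 78 peaks, 68 in Fs and 10 in Fts.

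The samples were sperm of 3 Duroc boars. Each ejaculate was split. The Fs part was snap-frozen in liquid nitrogen without the freezing extender and kept at low temperature for RNA extraction, and the Fts part was cooled, diluted in a lactose and egg yolk extender and then in the same extender with glycerol, frozen in straws and thawed. MeRIP-seq (pull-down of RNA fragments with an antibody to m6A, followed by sequencing beside an untreated input library) gave 1 list of mRNA peaks for each of 3 Fs and 3 Fts samples. Both groups came from the same breed and the labels name no other difference between them. The labels number the samples of each group from 1 to 3 but do not say that equal numbers mark the same boar. A peak is a stretch with more antibody reads than input reads by the MACS program, and its score is 10 times -log10 of the p-value, so that a score of 13 stands for a p-value of 0.05. A gene without a listed peak had none that passed both the peak caller and the authors' later selection of mRNA peaks. RNA amount, read depth and degree of methylation cannot be told apart in a peak list.

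N6-methyladenosine (m6A) is the most abundant internal modification of eukaryotic mRNA. A methyltransferase complex with METTL3 and METTL14 writes it, mostly in a short motif around the sequence GGAC, the demethylases FTO and ALKBH5 remove it, and YTH domain proteins read it and steer the decay and translation of the mRNA. Mature sperm hardly transcribe or translate, and much of their RNA was made earlier in the testis.

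Of the members, ADAMTS3 encodes a secreted metalloproteinase that trims procollagens and takes part in the maturation of the lymphatic growth factor VEGFC. MALRD1 encodes a large membrane protein with MAM and LDL receptor class A domains that is linked to bile acid metabolism through FGF19. TLN1 encodes talin-1, which ties integrins to the actin cytoskeleton. PIEZO2 encodes a cation channel opened by mechanical force. DOCK2 encodes an activator of the GTPase Rac, known mostly from leukocytes.

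The sequences under the recurrent peak of each gene are shown because they recurred in all 3 Fs samples. The stretches were read from the RefSeq assembly Sscrofa11.1, the build that UCSC names susScr11, and are given 5' to 3' on the strand of the mRNA. For each gene the stretch covered by the peak of every Fs sample with the highest mean score on that exon is shown, for TLN1 its part on exon 49. Capitals mark the 12 pentamers of the m6A motif that were searched on the mRNA strand alone, with overlaps allowed. Each pentamer is a G or A, a second G or A, then AC, then an A, C or T.
ADAMTS3 exon 18, chr8:68691532-68691666, minus strand: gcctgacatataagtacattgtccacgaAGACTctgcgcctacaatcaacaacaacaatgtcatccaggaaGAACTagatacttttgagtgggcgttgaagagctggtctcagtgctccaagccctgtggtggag
MALRD1 exon 23, chr10:55199083-55199130, minus strand: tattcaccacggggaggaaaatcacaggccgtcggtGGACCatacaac
TLN1 exon 49, chr1:236418931-236419038, minus strand: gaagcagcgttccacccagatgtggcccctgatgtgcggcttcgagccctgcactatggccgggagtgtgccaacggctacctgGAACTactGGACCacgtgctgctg
PIEZO2 exon 2, chr6:97704009-97704104, plus strand: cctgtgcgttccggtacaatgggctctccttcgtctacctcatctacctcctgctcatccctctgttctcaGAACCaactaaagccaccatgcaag
DOCK2 exon 47, chr16:53850544-53850681, minus strand: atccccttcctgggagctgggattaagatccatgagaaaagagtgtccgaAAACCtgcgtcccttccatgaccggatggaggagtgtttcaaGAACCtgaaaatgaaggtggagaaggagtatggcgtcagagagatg
The ADAMTS3 stretch of 135 nt held 2 of these pentamers, and 82.6% of all windows of that length on coding transcripts held at least 1. In MALRD1 the stretch of 48 nt held 1 pentamer, a GGACC, against 46.1% of windows with any. The 108 nt of TLN1 held 2 (75.6% of windows had any), the 96 nt of PIEZO2 held 1 (71.5%) and the 138 nt of DOCK2 held 2 (83.2%). None of the 5 stretches contained GGACT, which 4.23% to 12.3% of windows of these lengths contained. A pentamer was thus present in each stretch, as in most windows of the same length, except for the length of the MALRD1 stretch (46.1%). A match is a description of the letters and not a methylated site.

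Peak numbers of the 5 genes are the values that chose them. ADAMTS3 had 5, 5 and 5 peaks in Fs1, Fs2 and Fs3 and 0 in each Fts sample, the largest fall of all 11705 genes. MALRD1 had 3, 6 and 6 peaks in Fs and 2, 0 and 0 in Fts, a fall by 4.33 peaks that ranked second. Every Fs sample of both genes lay above every Fts sample.

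TLN1 had 4, 5 and 5 peaks in Fs and 1, 2 and 1 in Fts. PIEZO2 had 3, 5 and 2 in Fs and 0 in each Fts sample. DOCK2 had 6, 4 and 4 in Fs and 2, 2 and 0 in Fts. Each of these 3 genes fell by 3.33 peaks on average, and again no Fts sample reached the lowest Fs sample. Mean numbers were 4.67 ± 0.577 against 1.33 ± 0.577 for TLN1, 3.33 ± 1.53 against 0 for PIEZO2 and 4.67 ± 1.15 against 1.33 ± 1.15 for DOCK2 (SD, n = 3 per group), and those of MALRD1 were 5.00 ± 1.73 against 0.667 ± 1.15.

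**Figure D1:**
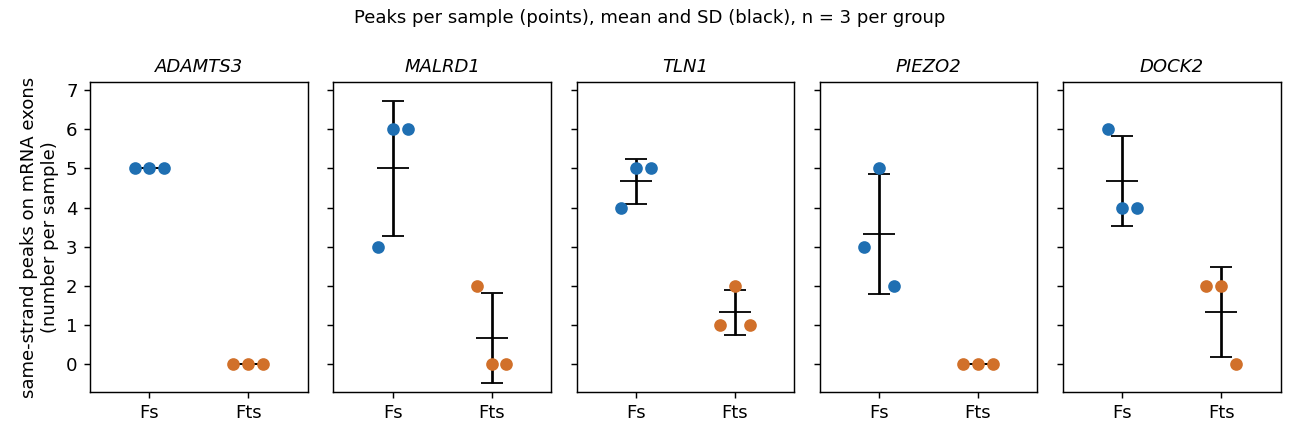
Number of peaks per sample (vertical axis) on the exons of each gene in Fs and Fts; points are samples, black lines the mean and SD of 3 samples. No Fts point reaches the lowest Fs point in any gene, and ADAMTS3 and PIEZO2 are at 0 in all 3 Fts samples.

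The samples as a whole did not share this direction. Lists held 8015 to 10378 peaks in Fs and 9682 to 11982 in Fts, the median difference over all genes was 0, and 5038 genes had a lower mean in Fts and 5225 a higher one. Every Fs sample lay above every Fts sample in 627 genes (5.36%), and every Fts sample above every Fs sample in 1051 (8.98%). Among the 1278 genes with at least 10 peaks over the 6 samples, the lowest number among the 5 genes, the shares were 5.95% and 28.2%. All 5 genes were picked from the first kind, so nothing is read from their count. No list was a copy of another: a pair of samples shared 1 to 17 peaks with both position and score.

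**Figure D2:**
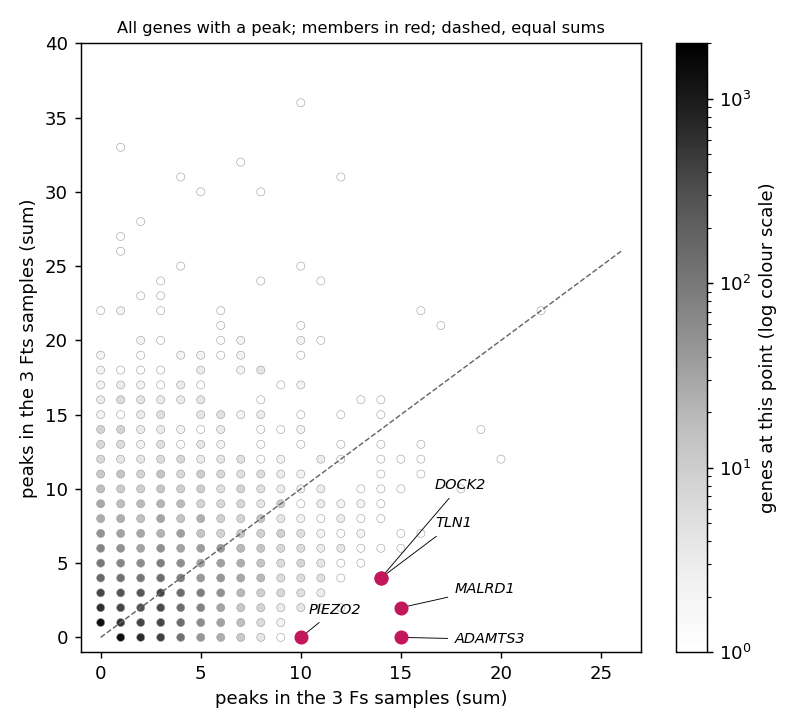
Summed peak number of each gene over the 3 Fs samples (horizontal axis) and over the 3 Fts samples (vertical axis), with shading for the number of genes at a point, and equal sums on the dashed line; 5 genes lie outside the axes. ADAMTS3 (15 and 0), MALRD1 (15 and 2), TLN1 and DOCK2 (both 14 and 4) and PIEZO2 (10 and 0) form the lower right edge.

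CGNL1, which encodes a protein of cell junctions, stood just outside the choice. It had 2, 4 and 6 peaks in Fs and 2, 0 and 0 in Fts, the same fall of 3.33 as TLN1, PIEZO2 and DOCK2, but its groups touched. MYO7B, DGKG, DLG2, ADGRL2 and COLGALT1 followed, tied at a fall of 3 peaks each. Of these 5, COLGALT1 (2, 3 and 4 against 0, 0 and 0), an enzyme of collagen glycosylation, MYO7B (4, 4 and 3 against 0, 1 and 1), an unconventional myosin, and DLG2 (5, 4 and 7 against 3, 2 and 2), a synaptic scaffold protein, had groups that did not overlap.

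Genes whose 6 peak numbers were most like those of a member were found by the sum of the absolute differences over the 6 samples. Nearest to ADAMTS3 were ADGRL2 and MYO7B, both 6 peaks away, so no gene came close to its pattern of 5 and 0. For PIEZO2 the nearest were CCDC141 (3, 3 and 2 against 0, 0 and 0) and IL16 (3, 4 and 2 against 0, 0 and 1), each 2 peaks away. TLN1 was followed by JPH4 (4, 5 and 5 against 1, 2 and 3) at 2 peaks and IQGAP3 at 3, MALRD1 by CGNL1 at 3 and DGKG at 4, and DOCK2 by DNM3 at 3 and PPIP5K1 at 4.

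The name large holds for 4 genes by the length of the locus and for all 5 by the length of the mRNA. MALRD1 lies on chromosome 10 (54782806-55381043, minus strand), spans 598 kb and ranks at the 99.2 percentile of 20674 protein-coding genes. DOCK2 on chromosome 16 (53843248-54248708, minus strand) spans 405 kb, PIEZO2 on chromosome 6 (97644115-97945693, plus strand) 302 kb and ADAMTS3 on chromosome 8 (68675067-68948537, minus strand) 273 kb, against a median of 19.2 kb. TLN1 on chromosome 1 (236416041-236450978, minus strand) spans 34.9 kb, at the 64.9 percentile. Its mRNA of 8523 nt with 56 exons is long all the same, as are those of PIEZO2 (9488 nt, 53 exons), MALRD1 (7289 nt, 44 exons), ADAMTS3 (6385 nt, 22 exons) and DOCK2 (6238 nt, 52 exons), against medians of 2698 nt and 7 exons. The GC content of the mRNAs ran from 45.0% in MALRD1 to 60.6% in TLN1, on both sides of the median of 51.2%.

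Long loci were not more frequent among genes with more peaks in Fs. Among genes with at least 10 peaks, the 76 with every Fs sample above had a median span of 70.7 kb, with 40.8% over 100 kb. The 360 genes with every Fts sample above had a median span of 93.0 kb, with 46.4% over 100 kb, and all 1278 had 89.5 kb and 44.8%. By the mRNA the order was the other way. The median mRNA of the 76 genes was 6420 nt with 22.5 exons. It was 5276 nt with 19.0 exons in the 360 genes, and 5723 nt with 20.0 exons in all 1278. Median GC content was 53.0%, 46.1% and 47.9% in the same order. None of these differences was tested.

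The peaks of the 5 genes covered 41 exons, of which 34 had a peak in no Fts sample, 4 had one in both groups and 3 in Fts alone. The number of exons with a peak was 22, 26 and 23 in Fs and only 6, 5 and 2 in Fts. Within Fs, 11 of the 41 exons had a peak in all 3 samples, 11 more in 2 samples and 16 in 1 sample. Most of the 41 exons thus lacked a peak in at least 1 Fs sample. These counts follow from the peak numbers that chose the genes. No share over all exons with a peak stands beside them, so nothing is read from them.

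**Figure D3:**
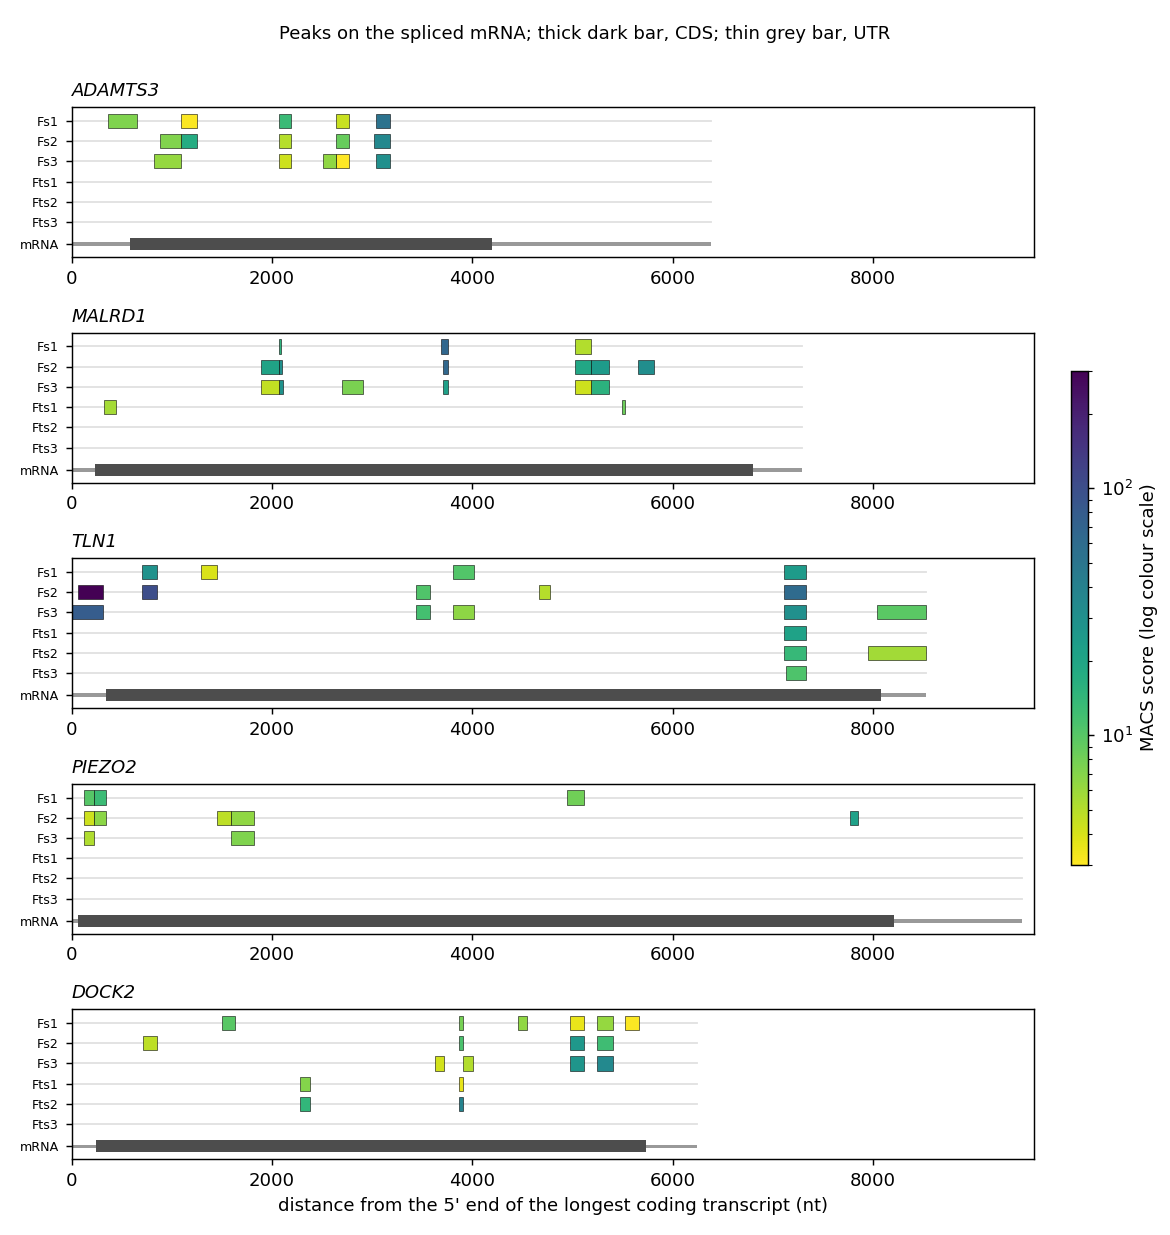
Peaks of each sample (rows) along the longest coding transcript of each gene, in nt from its 5' end, coloured by MACS score on a log scale; the thick dark bar is the coding sequence (CDS) and the thin grey bar the UTR. Peaks of all 3 Fs samples line up at exons such as ADAMTS3 exon 18 and MALRD1 exon 23, and the block over TLN1 exons 49 and 50 is the one present in all 6 samples.

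In ADAMTS3 the Fs samples shared exons 11, 15 and 18. Exon 18 carried the highest peak in each, with scores of 52.2, 34.95 and 30.51 in Fs1, Fs2 and Fs3. Exon 11 scored 13.14, 5.05 and 4.29, and exon 15 scored 4.4, 8.8 and 3.02. So 1 of the 3 recurrent exons was well above the score of 13 in all Fs samples, and the other 2 passed it in at most 1. Exon 4 had a peak in Fs1 (3.07) and Fs2 (17.72), exon 3 in Fs2 (7.15) and Fs3 (6.21), exon 1 in Fs1 alone (7.37, across the start of the CDS) and exon 14 in Fs3 alone (6.5).

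MALRD1 had its highest scores at exon 23, with 65.3, 64.87 and 22.2 in the Fs samples. Exon 15 followed with 15.5, 30.16 and 29.09, and exon 32 with 5.06, 19.21 and 4.28. Exons 14 and 33, next to exons 15 and 32 in the mRNA, had peaks in Fs2 (20.66 and 24.5) and Fs3 (4.58 and 15.98), and exon 36 in Fs2 alone (31.55). The only Fts peaks were in Fts1, on exon 1 (5.59) and exon 35 (8.39), and no Fs sample had a peak on either exon. MALRD1 was therefore the member whose Fs and Fts peaks shared no exon while both groups had peaks.

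TLN1 differed from the other 4 genes by a peak listed in every sample. It lay over exons 49 and 50 with the intron between them, as a line of 722 bp (710 bp in Fts3) of which 217 bases fell on exons (205 in Fts3). Its scores were 24.33, 61.46 and 30.38 in Fs and 21.08, 13.83 and 10.9 in Fts, so the lowest Fs score was above the highest Fts score. Exon 5 had a peak in Fs1 (28.43) and Fs2 (103.05), exon 23 in Fs2 and Fs3 (10.71 and 11.94), and exon 26 in Fs1 and Fs3 (10.5 and 6.61), and none of them in Fts. A peak across the annotated 3' end, in exon 56, was listed in Fs3 (9.81) and Fts2 (5.67).

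The highest score of the whole set, 298.91 in Fs2, was at TLN1 exon 1, where Fs3 had 78.22. Both peaks need a reservation. The first exon of TLN1 overlaps CREB3, a transcription factor gene on the opposite strand, over 406 bp of the annotation. Fs1, Fts1 and Fts3 had a peak at the same place listed on the CREB3 strand, with scores of 60.14, 119.45 and 69.12, and Fts2 had none on either strand. The locus thus held a peak in 5 of 6 samples, given to TLN1 in 2 and to CREB3 in 3. Without the peaks on exons of both genes TLN1 had 4, 4 and 4 peaks in Fs and 1, 2 and 1 in Fts, a fall by 2.67.

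PIEZO2 peaks were low and lay mostly near the 5' end of the mRNA. Exon 2 was the one exon with a peak in all 3 Fs samples, with scores of 10.03, 4.29 and 5.23. Exon 3 had 13.05 in Fs1 and 6.63 in Fs2, and exon 13 had 6.48 in Fs2 and 7.29 in Fs3. The single peak of at least 20 was on exon 52 in Fs2 (21.96). Of the 10 PIEZO2 peaks, 2 passed a p-value of 0.05.

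In DOCK2 the exons with a peak in all 3 Fs samples were 47 and 49, toward the 3' end of the CDS, and no Fts sample had a peak there. The other Fs peaks were spread over exons 7, 14, 34, 36, 37, 42 and 51. Exon 47 scored 3.47, 25.81 and 27.24, and exon 49 scored 6.18, 12.61 and 34.54, in each case lowest in Fs1. The lines at exon 49 were 376 to 489 bp long with 163 bases on the exon. Exon 36, an exon of 41 bp, was shared by the groups, with 7.84 in Fs1, 11.22 in Fs2, 3.57 in Fts1 and 38.45 in Fts2. Its highest score was thus in an Fts sample. Exon 21 had a peak in Fts1 (7.1) and Fts2 (14.45) and in no Fs sample.

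Adjacent exons with a peak in the same sample, such as MALRD1 exons 14 and 15 or PIEZO2 exons 2 and 3, border each other in the spliced mRNA. Joined into 1, they left ADAMTS3 with 5, 4 and 4 peaks, MALRD1 with 3, 4 and 4, and PIEZO2 with 2, 3 and 2 in Fs, while the Fts numbers and the numbers of TLN1 and DOCK2 stayed as they were. The groups of all 5 genes still did not overlap.

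Most peaks of the 5 genes had low scores. Of the 68 Fs peaks, 40 (58.8%) had a p-value above 0.05, close to the 54.3% of all Fs peaks, and the median score was 9.98 against 11.4. Of the 10 Fts peaks, 6 (60.0%) were above 0.05, against 48.0% of all Fts peaks. Scores of at least 50 were held by 7 of the 68 (10.3%, all Fs peaks 16.4%) and by none of the 10. The lowest score, 3.02 at ADAMTS3 exon 15, stands for a p-value of 0.499.

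With only peaks of score 20 or more, ADAMTS3 had 1, 1 and 1 peaks in Fs and 0 in each Fts sample, MALRD1 had 1, 5 and 2 against 0, and TLN1 had 2, 3 and 2 against 1, 0 and 0. PIEZO2 (0, 1 and 0 against 0) and DOCK2 (0, 1 and 2 against 0, 1 and 0) had overlapping groups at that score. So 3 of 5 genes kept separate groups, and 286 of 6294 genes with such a peak (4.54%) had every Fs sample above. At a score of 50 or more the groups of all 5 genes overlapped.

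**Figure D4:**
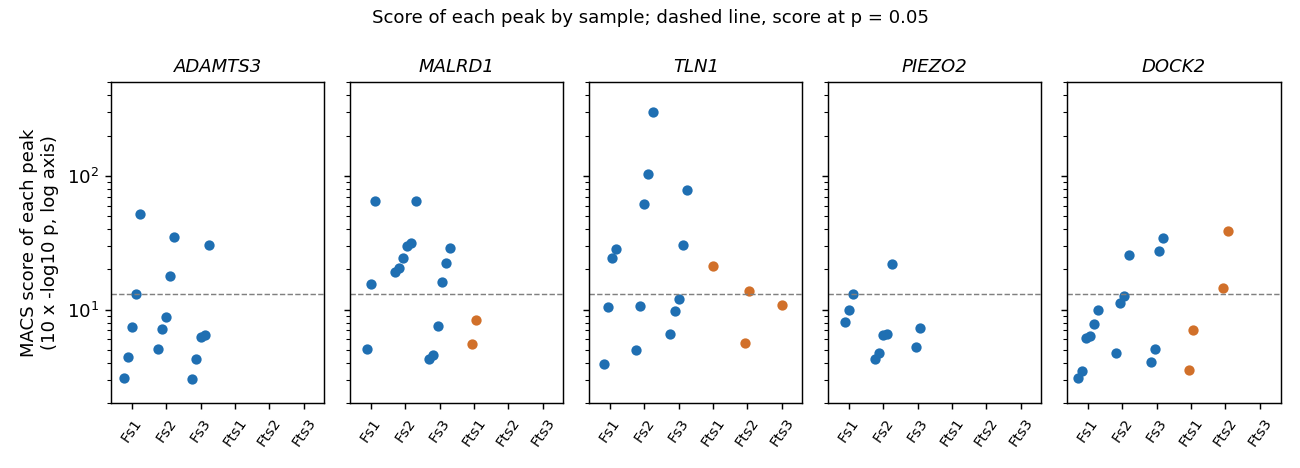
MACS score of each peak by sample and gene on a log axis, Fs in blue and Fts in orange; the dashed line is the score that stands for a p-value of 0.05. More points lie under the line than above it, and TLN1 in Fs2 reaches 298.91.

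Summed over the 5 genes, the scores were 301, 842 and 355 in Fs and 45.7, 72.4 and 10.9 in Fts. Fs2 held more than the other Fs samples together, mainly by TLN1, whose peaks there summed to 479.17. Of this, 298.91 was the exon 1 peak at the overlap with CREB3. Without that peak Fs2 no longer exceeded the other Fs samples together. No Fts sum came near the lowest Fs sum.

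By place in the mRNA, 64 of the 68 Fs peaks were in the CDS, 3 in the 5' UTR (1 in ADAMTS3 and 2 in TLN1) and 1 in the 3' UTR (TLN1), each by the middle base of its part on the longest coding transcript. The 10 Fts peaks were in the CDS (9) and the 3' UTR (1, TLN1). The places of all other peaks were not counted, so no share over all peaks stands beside these numbers. Peak ends followed the annotation closely: 42 Fs peaks (61.8%) were equal to an exon and 67 (98.5%) had an end at an exon border, against 33.7% and 67.6% of all Fs peaks. The listed outline of the Fs peaks was therefore mostly that of an exon, and a methylated base cannot be placed within it. The members' peaks had to overlap an exon on their strand, whereas all Fs peaks were counted without that condition. The shares were thus not taken alike, and nothing is read from their difference. Of the 10 Fts peaks, a smaller share than of all Fts peaks was equal to an exon. A larger share had an end at an exon border. At least 1 of the 12 pentamers was present in 57 of the 68 Fs peaks (83.8%) and in 7 of the 10 Fts peaks (70.0%), and GGACT in 11 (16.2%) and 2 (20.0%). The median length of the 68 Fs peaks was 138 nt. Of windows of 138 nt on coding transcripts, 83.2% held a pentamer and 12.3% held GGACT. The pentamer share in Fs was thus near that of windows of such a length.

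Peaks that MACS had numbered but that are not in the mRNA lists show how much the selection removed. The running number of a listed peak rises along each chromosome without exception, and the highest number was 115463 to 148425 in Fs and 92939 to 116510 in Fts, so the lists hold 6.94% to 7.04% of the numbers in Fs and 8.70% to 12.4% in Fts. The numbers reached in Fs1 and Fts3 were close, so the ranges of the groups overlapped over the genome. Per Mb between the listed peaks on either side of a gene, PIEZO2 had 22.1 to 42.0 numbers in Fs and 13.2 to 17.1 in Fts. TLN1 had 121 to 188 and 74.2 to 84.8, and DOCK2 58.4 to 75.4 and 48.0 to 51.9. The ranges overlapped for ADAMTS3 (57.5 to 60.6 and 42.3 to 61.2) and MALRD1 (43.5 to 64.4 and 31.6 to 48.9). The members' own listed peaks are among these numbers, so the ranges are partly the values that chose the genes. For TLN1 the numbers counted were 13, 8 and 6 in Fs, with 5, 5 and 4 listed peaks in its span. In Fts they were 12, 3 and 4, with 2, 1 and 2 listed. The stretch counted was also bounded by each sample's own listed peaks, and for TLN1 it ran from 0.0360 to 0.142 Mb. The part of the number of called peaks, or of the later selection, in the members' peak numbers was not tested.

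Related genes were taken from 6 lists. For comparison with their counts, 11705 genes had a peak in at least 1 sample, against 20674 protein-coding genes in the annotation. Of these 11705 genes, 5.36% had every Fs sample above and 8.98% every Fts sample above. The lists are too short for their counts to be read against these shares. Of 18 other ADAMTS proteinases 14 had a peak, ADAMTS17 alone had every Fs sample above (2, 2 and 2 against 0, 0 and 1), none had every Fts sample above, and the median difference was 0, as over all genes. ADAMTS20 (1, 2 and 2 against 3, 2 and 2) and ADAMTS6 (2, 1 and 2 against 2, 4 and 2) carried the most peaks and had overlapping groups. Of the 3 genes around VEGFC maturation, VEGFC, its cofactor CCBE1 and its receptor FLT4, none had separate groups, and FLT4 had 1, 1 and 1 against 1, 0 and 1.

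Of 15 genes of the DOCK family and its partners 14 had a peak. ELMO1 (2, 1 and 2 against 0, 0 and 0) and ELMO2 (2, 3 and 2 against 0, 0 and 1), which bind DOCK proteins, had every Fs sample above, and RAC1, the GTPase itself, had every Fts sample above (0, 0 and 0 against 1, 1 and 3). The median difference was -0.333. DOCK1 had 1, 2 and 4 against 0, 0 and 1, and DOCK3 had 1, 5 and 3 against 3, 5 and 3, with groups that overlapped in both.

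Of 16 genes of talin and focal adhesion 11 had a peak and none had every Fs sample above. The kinase PTK2 (0, 0 and 0 against 3, 5 and 5) and vinculin, VCL (0, 0 and 0 against 1, 3 and 2), which binds talin, had every Fts sample above, opposite to TLN1. The paralogue TLN2 had 2, 2 and 4 against 2, 2 and 3. Of 7 mechanically gated channels and partners 6 had a peak, PIEZO1 had none in any sample, and STOML3 (1, 1 and 1 against 0, 0 and 0) had every Fs sample above. Of the 7 annotated genes of 8 with MAM or LDL receptor class A domains or of the FGF19 pathway, 5 had a peak, none had separate groups, and MDGA1 had the most (3, 2 and 4 against 2, 3 and 2). The median difference was 0 in the talin list, -0.333 in the channel list and 0 in the MAM list. In the VEGFC list it was 0.333.

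The labelled cell type was looked at through marker genes, where neither a listed peak nor a missing one gives the level of the mRNA. The study treated the sperm pellets with the detergent Triton X-100 to remove somatic cells before RNA extraction. Of 20 markers of spermatozoa and late spermatids 5, 5 and 4 had a peak in Fs and 4, 6 and 7 in Fts, and PRM1, TNP1, AKAP4, ODF1, SMCP, GAPDHS and ZPBP2 had none in any sample. Of 10 leukocyte markers, of interest for DOCK2, 2, 3 and 4 had a peak in Fs and 2, 4 and 4 in Fts, with CD14, CORO1A and CSF1R at none. Of 6 epithelial markers 1, 1 and 2 had a peak in Fs and 3, 3 and 4 in Fts, with EPCAM and CLDN4 at none. Of 6 markers of somatic cells of the testis 0, 2 and 2 had a peak in Fs and 1, 2 and 1 in Fts, with WT1 at none. Over all genes, 11705 had a peak in at least 1 sample, against 20674 protein-coding genes, so a peak in a marker gene is common and is not read as cell content. The part of other cell types in the members' peaks was not tested.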

How the data were processed

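MeRIP-seq peak lists of 3 Fs and 3 Fts sperm samples were analysed. The authors removed ribosomal RNA, fragmented the RNA, pulled it down with an anti-m6A antibody, trimmed reads with cutadapt 1.9.3 and aligned them to susScr11 with HISAT2. They called peaks with MACS in each sample against its own input and kept those on mRNAs with an in-house program. Each peak carries the MACS score that the authors deposited, 10 times -log10 p, and the lowest was 3.02. The lists carry no reads. The study's sequencing summary, whose numbers are not used here, gives fewer mapped antibody reads for each Fts library than for any Fs library. Some Fts input libraries, but not all, also had fewer mapped reads than any Fs input library. A deposited list of sites that differ between the groups holds the authors' own comparison and was not used.

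Peaks were assigned with Python 3.11.15 to a gene of RefSeq Annotation Release 106 of Sscrofa11.1 by at least 1 bp of overlap with an mRNA exon on the same strand. Of the 61902 peaks, 0 ran past the end of a sequence, and all sequence names were found. Exons were numbered on the longest coding transcript. Values are means and SD of 3 samples. No test was run, since the members were chosen by these values, and 3 against 3 samples cannot give an exact two-sided permutation p under 0.1. The members, the 6 lists of related genes and the 4 marker lists were chosen with earlier results of these data known. Named were the members, the 2 genes nearest to each, the 5 next largest falls, and from each related list the genes with separate groups and up to 3 with the most peaks. CREB3, COLGALT1, PIEZO1, DOCK1, TLN2 and the genes of VEGFC maturation were named after their values were seen, the first for its overlap with TLN1, the second for a tie with the fifth of the largest falls, and the rest as close relatives or partners of the members. The sequence windows were consecutive stretches of the longest coding transcript of each gene. Counting was tested on simulated data. Alternatives were a score of at least 20 or 50, the midpoint of a peak, the longest transcript alone, joined peaks, either strand, numbers per 10000 peaks and the omission of each sample, and, added after seeing the data, the removal of peaks on exons of 2 genes.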

Additional observations from a re-analysis of the deposited data

How the results depend on the processing

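No alternative reversed a direction, which is no support for the difference, since the genes were picked for it. With every Fs sample above every Fts sample, no omission of a sample can reverse it. Several other alternatives recount the same peaks. Of 97 alternative values, 81 moved by less than the spread between replicates or, for the share of genes, by less than 1.5 times. At a score of at least 20 the mean difference, Fts minus Fs, was -1 peak for ADAMTS3, -2.67 for MALRD1, -2.00 for TLN1, -0.333 for PIEZO2 and -0.667 for DOCK2, and -7.33 for the number of exons with a peak. At 50 or more these were -0.333, -0.667, -1.33, 0, 0 and -2.67. The difference of ADAMTS3 was -4.33 with joined peaks and -5.30 per 10000 peaks, and that of TLN1 was -2.67 without peaks on exons of 2 genes.

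With each sample left out in turn, the differences ran from -5.00 to -5.00 for ADAMTS3, -5.33 to -3.83 for MALRD1, -3.67 to -3.17 for TLN1, -4.00 to -2.50 for PIEZO2, -3.67 to -2.67 for DOCK2, -20.2 to -18.2 for the number of exons and -555 to -285 for the summed score. The summed score difference was -456 with all samples and -285 without Fs replicate 2. The first value includes the TLN1 exon 1 peaks of Fs2 and Fs3 at the overlap with CREB3, the second that of Fs3. The share of genes with every Fs sample above rose from 5.36% to between 6.84% and 10.6%, since fewer samples have to be ordered, with 10.6% without Fs replicate 1. No paired analysis was possible because the labels do not tie equal numbers in Fs and Fts to the same boar, and no test was run. Each Fts antibody library had fewer mapped reads than any Fs antibody library in the study's sequencing summary. The same held for some, but not all, Fts input libraries against the Fs input libraries. Loss of m6A, loss of RNA and lower depth cannot be told apart in the peak lists.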
